A study of Mus musculus with 8 samples.

Results

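The 10 genes described here encode the receptors for insulin and IGF1 and the proteins that act closest to them: the ligand *Igf1*, the receptors *Insr* and *Igf1r*, the receptor substrates *Irs1* and *Irs2*, the inhibitory adaptors *Grb10* and *Grb14*, and the PI3K subunits *Pik3r1*, *Pik3ca* and *Pik3cd*. They were taken by gene symbol from a table of 55401 genes, and each symbol matched 1 row. All 10 were among the 15150 genes that were expressed highly enough to be tested.

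Kidney RNA of diabetic mice was sequenced after treatment with rFGF4 or with vehicle, with 4 libraries in each group, to find genes that respond to rFGF4. rFGF4 is a recombinant FGF4 whose structure was modified. By their labels, the treated mice are numbers 1, 2, 3 and 5 and the vehicle mice numbers 2, 3, 4 and 5. Expression was given as FPKM, fragment numbers divided by transcript length and by the library's mapped fragments, so levels can be compared between genes of different length.

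The labels assign both groups to the *db*/*db* model, in which the leptin receptor is defective, and call the untreated group db. The study's text describes the sequenced animals as mice made diabetic with streptozotocin, which destroys insulin-producing cells, and gives the control treatment as PBS. The model that was sequenced therefore cannot be told from these sources, and insulin supply differs between the models. For both models the study describes male mice and injections of rFGF4 into the peritoneum every other day, with 1 mg/kg each, kept up for 8 weeks, but these details are not given for the sequenced mice themselves. The start is at 12 weeks of age in the figure legends, whereas the general methods for streptozotocin place it 8 weeks after an induction at 8 weeks of age. No non-diabetic group was analysed here.

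Insulin and IGF1 bind related receptor tyrosine kinases, which phosphorylate the substrates IRS1 and IRS2. The phosphorylated substrates recruit PI3K, a dimer of a regulatory and a catalytic subunit, and the lipid it makes leads to activation of AKT. AKT phosphorylates FoxO transcription factors and keeps them out of the nucleus, and it acts on mTORC1 and GSK3. In the kidney, insulin acts on podocytes and on tubule cells, where it affects glucose production and sodium transport. The transcripts of several members of this pathway are themselves controlled by FoxO factors and by feeding, which is why promoter sequences are shown here beside expression.

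Promoter sequences of 9 of the 10 genes were found in RefSeq (GRCm38.p6), with 13 promoters in all, each running from 250 bases before to 50 bases after the annotated start. *Insr* had no entry among the promoters used here, which does not show that RefSeq lacks it. The motif CAAAACA, the core of a FoxO-type insulin response element, was found on either strand in 2 of the 13 promoters, those of *Irs1* and *Irs2*, and in 6.28% of all 32851 promoters. The other FoxO-type motif, GTAAACA, was found in 0 of the 13 and in 3.65% of all promoters. The GC box GGGCGG was found in 9 of the 13 promoters and in 35.7% of all promoters. The promoters of both substrates are printed below with that of *Igfbp1*, a secreted IGF binding protein known for its insulin response element, because *Igfbp1* had the largest log2 fold change among the other pathway genes described below. Capitals mark CAAAACA or its reverse complement TGTTTTG, and GGGCGG. All sequences read 5′ to 3′ on the gene's own strand.
Irs1 (chr1:82291390-82291689, minus strand): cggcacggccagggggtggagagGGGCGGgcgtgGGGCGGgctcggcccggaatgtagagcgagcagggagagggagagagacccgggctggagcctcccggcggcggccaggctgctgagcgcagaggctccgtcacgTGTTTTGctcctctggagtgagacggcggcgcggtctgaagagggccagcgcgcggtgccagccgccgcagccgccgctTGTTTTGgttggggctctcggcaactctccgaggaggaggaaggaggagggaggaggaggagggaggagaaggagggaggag
Irs2 (chr8:11008880-11009179, minus strand): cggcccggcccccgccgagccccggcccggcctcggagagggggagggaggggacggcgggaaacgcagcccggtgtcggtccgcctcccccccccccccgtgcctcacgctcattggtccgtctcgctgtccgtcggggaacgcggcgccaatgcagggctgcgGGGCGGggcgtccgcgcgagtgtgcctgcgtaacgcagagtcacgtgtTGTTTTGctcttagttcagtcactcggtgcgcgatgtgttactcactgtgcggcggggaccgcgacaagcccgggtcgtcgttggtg
Igfbp1 (chr11:7197537-7197836, plus strand): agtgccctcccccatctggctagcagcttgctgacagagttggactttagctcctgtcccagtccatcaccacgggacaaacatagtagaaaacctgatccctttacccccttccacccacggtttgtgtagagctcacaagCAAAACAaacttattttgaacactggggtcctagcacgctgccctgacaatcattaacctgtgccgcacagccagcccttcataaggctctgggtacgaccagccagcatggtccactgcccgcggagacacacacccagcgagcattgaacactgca
The CAAAACA-type matches began 111 and 32 bases before the start in *Irs1*, 37 bases before it in *Irs2* and 108 bases before it in *Igfbp1*. The matches in the substrates were on the reverse strand and that in *Igfbp1* was on the gene's strand. These are matches of letters, and binding was not measured.

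A pair of libraries stood apart. rFGF4 mouse 1 and vehicle mouse 5 lay together at an end of the first principal component, which held 54.4% of the variance. They had the highest summed FPKM of 5 leukocyte markers (103 and 202, against 5.86 to 43.9 in the other 6 libraries) and the lowest shares of mitochondrial transcripts (19.0% and 24.4%, against 24.7% to 38.4%). Markers of proximal tubule, distal tubule, collecting duct, podocytes and endothelium were present in every library, and the adrenal markers *Cyp11b1* and *Cyp11b2* were at 0 in all. All 5 red blood cell markers had negative log2 fold changes (summed FPKM 120 to 2657 with rFGF4 and 1139 to 4325 with vehicle), and 0 of 5 passed the study's threshold. Of 6 proximal tubule markers 5 were negative, with sums from 1148 (rFGF4 mouse 1) to 6068 with rFGF4 and from 3406 to 7729 with vehicle, and of 4 loop and distal tubule markers 3 were negative, with 0 passing. All 4 endothelial and all 3 collecting duct markers were negative and all 4 podocyte and all 6 macrophage markers positive, with 0 passing. Of 5 adipocyte markers only 1 was tested, *Fabp4*, and it passed, lower with rFGF4. The defining markers *Adipoq* and *Plin1* were at or near 0. Summed FPKM was 389407 to 529835 after rFGF4 and 481321 to 552604 after vehicle. Absolute depth is unknown because no counts were analysed. In bulk tissue, fewer cells of a type and less RNA per cell cannot be told apart.

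*Insr*, the insulin receptor, was higher in the kidneys of rFGF4-treated mice, and it was the only one of the 10 genes to pass the study's threshold, which asks for p under 0.05 before adjustment and for a fold change no smaller than 1.5 or no larger than 0.67. The threshold was applied here to a limma fit of log2(FPKM + 1) over all tested genes. Of all tested genes 1.53% passed it (232 genes, 165 or 1.09% higher and 67 lower). The split between directions depends on scaling: 93 genes were higher and 83 lower under median-ratio scaling, in which every library is brought to the same median ratio of expression, and 647 were higher and 39 lower as TPM. With Benjamini-Hochberg adjustment over all genes, limma called 0 genes at 0.05, members included, whereas 700 genes (4.62%) had an unadjusted p under 0.05. Of these, 539 (3.56% of the tested genes) were higher with rFGF4, and they included 2 of the 10 genes. The smallest adjusted p was 0.918, and *Insr* had this value too.

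*Insr* was at 3.87, 1.5, 1.04 and 4.45 FPKM in rFGF4 mice 1, 2, 3 and 5, and at 0.620, 0.506, 0.778 and 1.01 FPKM in vehicle mice 2, 3, 4 and 5. The groups did not overlap, but the lowest rFGF4 value was only just above the highest vehicle value, and rFGF4 mice 1 and 5 stood well above mice 2 and 3. Mean levels were 2.71 ± 1.70 FPKM (SD, n = 4) with rFGF4 and 0.729 ± 0.219 (SD, n = 4) with vehicle, a ratio of means of 3.72. The log2 fold change on log2(FPKM + 1) was 0.99 (SE 0.32, 95% interval 0.25 to 1.72), with an unadjusted limma p of 0.0148. The two-sided exact permutation test gave p = 0.0286, the smallest that 4 mice against 4 allow. Every gene whose groups do not overlap has this value.

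The receptor gene kept its call in each of the 17 alternative fits at this threshold, with log2 fold changes from 0.75 to 1.57. Leaving out rFGF4 mouse 1 gave 0.82 (limma unadjusted p = 0.0409) and leaving out rFGF4 mouse 5 gave 0.76 (limma unadjusted p = 0.0362). Without both rFGF4 mouse 1 and vehicle mouse 5, the libraries that stood apart, it was 0.89 (limma unadjusted p = 0.0474). The rFGF4 mice with the most *Insr* had leukocyte marker sums of 103 (mouse 1) and 14.6 (mouse 5) and mitochondrial shares of 19.0% and 36.0%. Within the vehicle group, *Insr* was highest in mouse 5, which had the highest leukocyte sum (202) and the lowest mitochondrial share (24.4%). The part of tissue makeup in the *Insr* values was not tested. The scale of the transformation matters at such low levels, since a pseudocount of 1 FPKM shrinks the difference of a gene near 1 FPKM, and with a pseudocount of 0.1 the log2 fold change was 1.57.

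**Figure D1:**
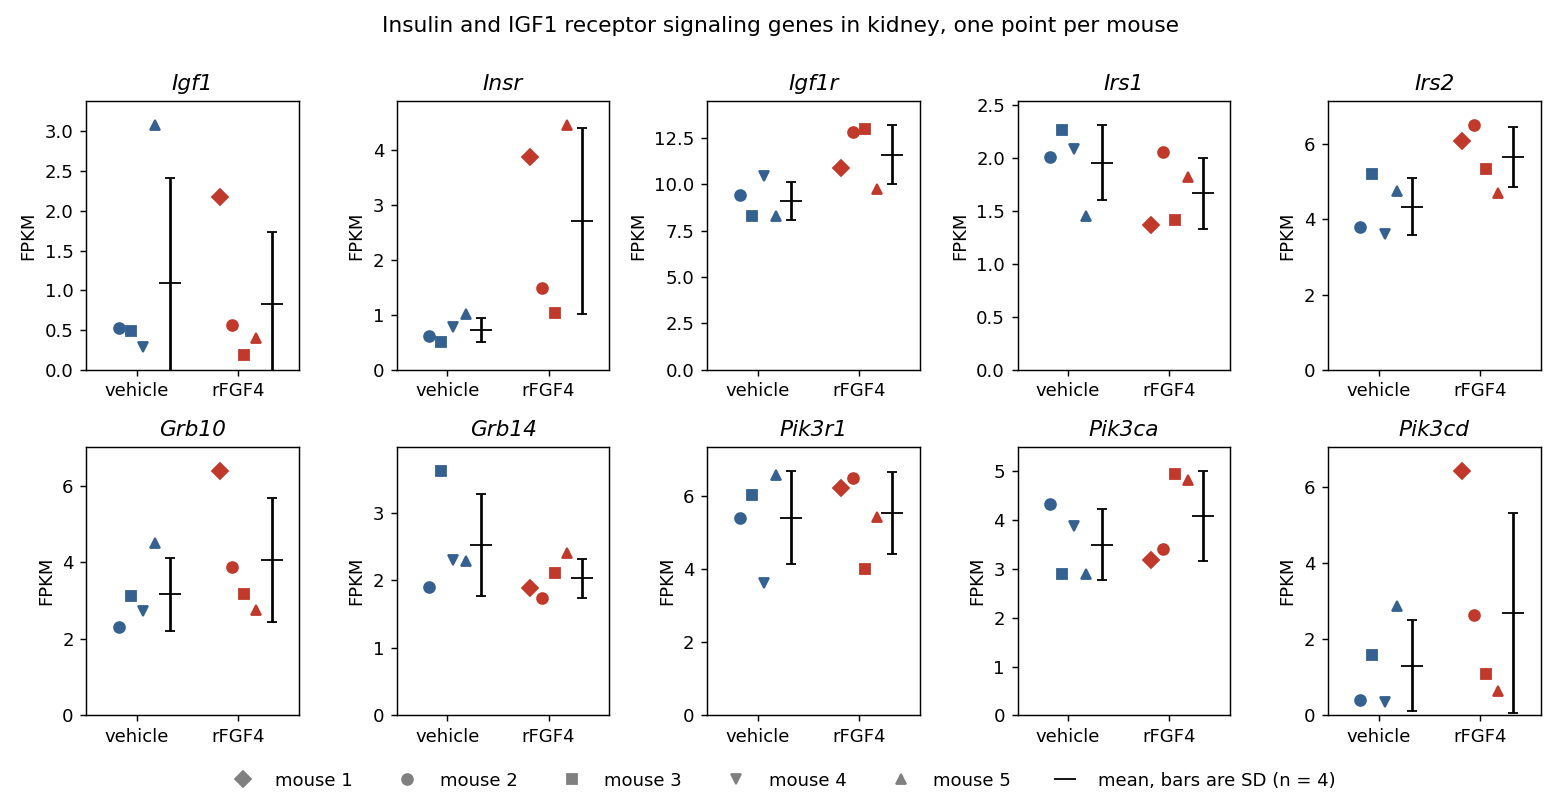
FPKM of each of the 10 genes in every library, on axes that start at 0, with vehicle in blue and rFGF4 in red and a symbol for each mouse number; black bars give the mean and SD of 4 mice, and the lower bars of *Igf1* are cut at 0. The groups separate for *Insr* alone, and rFGF4 mouse 1 and vehicle mouse 5 are the highest of their groups for *Igf1*, *Grb10* and *Pik3cd*.

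*Igf1r*, the IGF1 receptor, was the most abundant of the 10 transcripts in every library. It was at 10.9, 12.8, 13.0 and 9.72 FPKM with rFGF4 and at 9.42, 8.30, 10.4 and 8.28 FPKM with vehicle. All but 1 of the rFGF4 mice lay above all vehicle mice, the exception being mouse 5 at 9.72 FPKM, below vehicle mouse 4. The mean was 11.6 ± 1.57 FPKM (SD, n = 4) against 9.11 ± 1.03 (SD, n = 4). The log2 fold change was 0.31 (SE 0.13, 95% interval 0.0099 to 0.62), with an unadjusted limma p of 0.0444, an adjusted limma p of 0.918 and an exact permutation p of 0.0571. It did not reach the fold change of the study's threshold. Only 3 of the 8 fits that left out a mouse kept an unadjusted p under 0.05, and median-ratio scaling gave 0.20 with a limma p of 0.294. As TPM the log2 fold change was 0.55 with a limma p of 0.0192.

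The levels of the receptors were far apart in all libraries. The ratio of *Insr* to *Igf1r* FPKM was 0.355, 0.117, 0.0799 and 0.457 with rFGF4 and 0.0658, 0.0610, 0.0746 and 0.122 with vehicle. These ratios, and those given below, were chosen after the values were seen and were not tested. In none of the 8 libraries did the ratio reach 0.5, and the ranges of the groups overlapped.

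*Igf1*, the ligand, which the liver supplies to the circulation and which macrophages and other cells also make, did not differ between the groups beyond its spread. Its level was 2.17, 0.560, 0.18 and 0.397 FPKM with rFGF4 and 0.529, 0.490, 0.289 and 3.07 FPKM with vehicle. A single library of each group was high, rFGF4 mouse 1 and vehicle mouse 5, and the other 6 lay below 0.6 FPKM. The log2 fold change was -0.14 (95% interval -1.12 to 0.84, unadjusted limma p = 0.755, exact permutation p = 0.629). The direction was not stable: without vehicle mouse 5 the log2 fold change was 0.24.

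The macrophage markers were highest in the same libraries as *Igf1*. Their summed FPKM over 6 markers was 1198 in rFGF4 mouse 1 and 1728 in vehicle mouse 5, against 43.3 to 428 in the other 6 libraries. All 6 macrophage markers were tested and 0 passed the study's threshold. By group the sum ran from 80.3 to 1198 with rFGF4 and from 43.3 to 1728 with vehicle. The part of these cells in the *Igf1* values was not tested.

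The substrates gave values on opposite sides of 0, and neither passed the test. *Irs2* was at 6.07, 6.49, 5.32 and 4.69 FPKM with rFGF4 and at 3.79, 5.19, 3.60 and 4.74 FPKM with vehicle. The groups overlapped through rFGF4 mouse 5, which was below vehicle mice 3 and 5. Its log2 fold change was 0.32 (SE 0.15, 95% interval -0.022 to 0.66), with an unadjusted limma p of 0.0629 and an exact permutation p of 0.0857. *Irs1* was at 1.37, 2.06, 1.41 and 1.82 FPKM with rFGF4 and at 2.01, 2.27, 2.08 and 1.45 FPKM with vehicle. Vehicle mice 2, 3 and 4 lay above rFGF4 mice 1, 3 and 5, and vehicle mouse 5 was low, so the groups overlapped. Its log2 fold change was -0.15 (95% interval -0.48 to 0.18, unadjusted limma p = 0.335, exact permutation p = 0.2). It ran from -0.24 without vehicle mouse 5 to -0.094 without rFGF4 mouse 1, and was -0.0022 as TPM.

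*Irs2* was the more abundant substrate in all 8 libraries. The ratio of *Irs2* to *Irs1* FPKM was 4.44, 3.15, 3.77 and 2.57 with rFGF4 and 1.88, 2.29, 1.73 and 3.27 with vehicle. The mean ratio was 3.48 ± 0.80 (SD, n = 4) against 2.29 ± 0.69 (SD, n = 4), and the groups overlapped because vehicle mouse 5 lay above rFGF4 mice 2 and 5. Exons of each substrate gene overlap an annotated gene on the opposite strand, *Gm9747* for *Irs1* and *9530052E02Rik* for *Irs2*. Whether the authors' assembly used strand is not given in the sources used here, so reads of these pairs may have been assigned to either. None of the other 8 genes overlapped an exon of another gene.

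The inhibitory adaptors bind the activated receptors and limit their kinase activity, and neither passed the test. *Grb10* was at 6.39, 3.89, 3.18 and 2.76 FPKM with rFGF4 and at 2.30, 3.14, 2.74 and 4.51 FPKM with vehicle. The highest values were again those of rFGF4 mouse 1 and vehicle mouse 5. Its log2 fold change was 0.25 (95% interval -0.31 to 0.82, unadjusted limma p = 0.331, exact permutation p = 0.371). Without rFGF4 mouse 1 it was 0.054. *Grb14* ranged from 1.74 to 2.40 FPKM with rFGF4 and from 1.90 to 3.62 FPKM with vehicle, with a log2 fold change of -0.20 (95% interval -0.58 to 0.18, unadjusted limma p = 0.263, exact permutation p = 0.257). Vehicle mouse 3, at 3.62 FPKM, was the only library above 2.40 FPKM, and without it the log2 fold change was -0.063.

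Of the PI3K subunits, *Pik3cd* varied most between libraries. *Pik3cd*, the catalytic subunit p110δ, which is found mainly in leukocytes, was at 6.42, 2.65, 1.08 and 0.637 FPKM with rFGF4 and at 0.407, 1.58, 0.356 and 2.88 FPKM with vehicle. The groups overlapped, and the values covered more than a 10-fold range within the rFGF4 group. The log2 fold change was 0.57 (95% interval -0.64 to 1.77, unadjusted limma p = 0.310, exact permutation p = 0.429). The interval reaches far to both sides of 0. Without rFGF4 mouse 1 the log2 fold change was 0.15, and without vehicle mouse 5 it was 0.87.

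*Pik3cd* and the leukocyte markers were highest in the same pair of libraries. The summed FPKM of *Ptprc*, *Coro1a*, *Laptm5*, *Cd53* and *Cd52* was 103, 43.9, 13.9 and 14.6 with rFGF4 and 5.86, 36.3, 8.24 and 202 with vehicle. All 5 markers were tested and 0 passed the study's threshold. The part of leukocytes in the *Pik3cd* values was not tested.

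**Figure D2:**
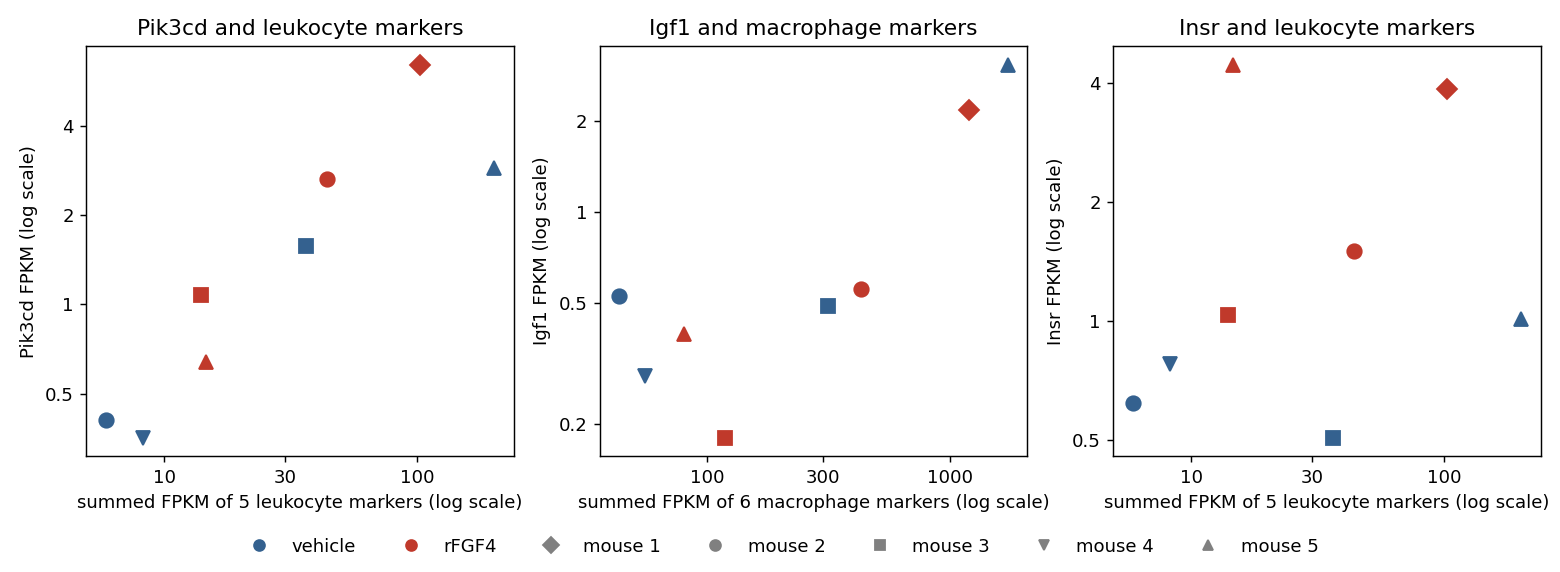
FPKM of *Pik3cd*, *Igf1* and *Insr* on the vertical axes against the summed FPKM of 5 leukocyte or 6 macrophage markers on the horizontal axes, all on log scales, with a point for each library, vehicle in blue and rFGF4 in red. For *Pik3cd* and *Igf1* the libraries with the highest marker sums, rFGF4 mouse 1 and vehicle mouse 5, also hold the highest values. *Insr* was high in rFGF4 mouse 1 (3.87 FPKM at a leukocyte sum of 103) and in rFGF4 mouse 5 (4.45 FPKM at 14.6), and vehicle mouse 5 had the highest vehicle value (1.01 FPKM at 202).

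The broadly expressed subunits differed little. *Pik3r1*, the regulatory subunit p85α, ranged from 3.99 to 6.48 FPKM with rFGF4 and from 3.62 to 6.56 FPKM with vehicle, with a log2 fold change of 0.034 (95% interval -0.42 to 0.49, unadjusted limma p = 0.866, exact permutation p = 0.8). *Pik3ca*, the catalytic subunit p110α, ranged from 3.17 to 4.93 FPKM with rFGF4 and from 2.89 to 4.32 FPKM with vehicle, with a log2 fold change of 0.17 (95% interval -0.23 to 0.58, unadjusted limma p = 0.358, exact permutation p = 0.371). That value ran from 0.092 without rFGF4 mouse 3 to 0.26 without rFGF4 mouse 1. *Pik3ca* was above *Pik3cd* in every library except rFGF4 mouse 1, where the ratio of *Pik3cd* to *Pik3ca* was 2.02, and in vehicle mouse 5 the ratio was 0.995.

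Of the 10 genes, 7 had a positive and 3 a negative log2 fold change, and their median was 0.21. Over all tested genes 67.1% were positive with a median of 0.086. Under median-ratio scaling the median of all genes was -0.011, that of the 10 genes 0.11, and 6 of the 10 were positive. Without rFGF4 mouse 1 the median of the 10 genes was 0.10, that of all genes 0.010, and 6 of the 10 were positive. As TPM the median of all genes shifted to 0.29 and that of the 10 genes to 0.44. *Insr* was also the only one of the 10 with groups that did not overlap, against 3.33% of all tested genes (504 genes).

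**Figure D3:**
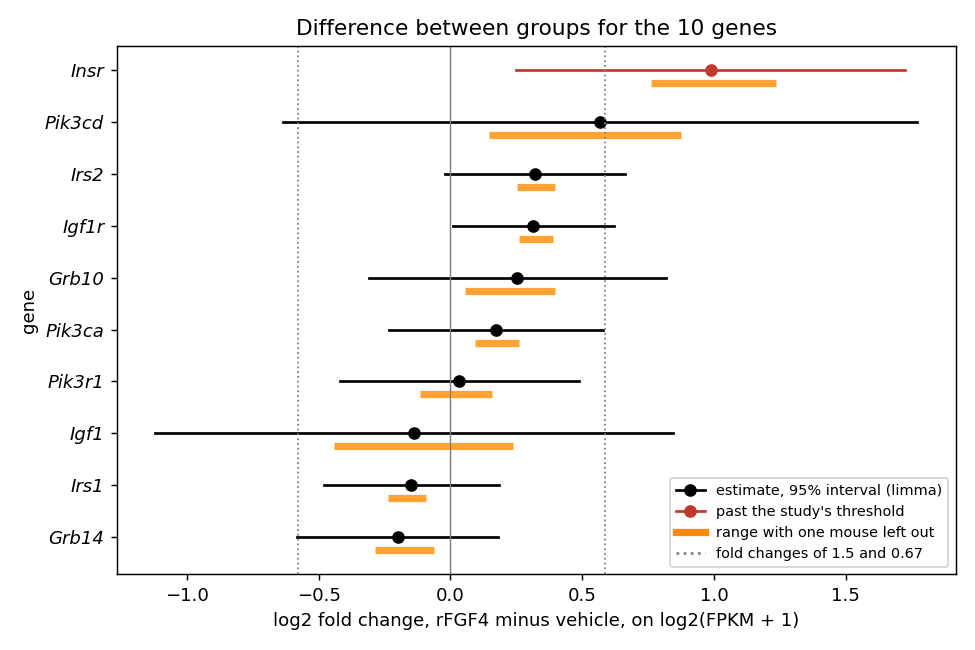
Log2 fold change of each gene on log2(FPKM + 1), rFGF4 minus vehicle, with its 95% interval from limma; orange bars show the range when a single mouse is left out, and dotted lines mark fold changes of 1.5 and 0.67. *Insr*, in red, is the gene past the study's threshold, and the orange bars of *Igf1* and *Pik3r1* cross 0.

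By mean FPKM over the 8 libraries, the order was *Igf1r* (10.4), *Pik3r1* (5.46), *Irs2* (4.99), *Pik3ca* (3.79), *Grb10* (3.61), *Grb14* (2.28), *Pik3cd* (2.0), *Irs1* (1.81), *Insr* (1.72) and *Igf1* (0.961). *Igf1r* was above *Pik3r1* in 8 of 8 libraries, with ranges that did not overlap. All other neighbours in this order overlapped in range, and *Pik3ca* was above *Grb10* in only 4 of 8 libraries.

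The other genes of the pathway were read from a list of 70, of which 61 were tested. Of these, 2 passed the study's threshold, both higher with rFGF4, against 1.53% of all tested genes. *Igfbp1*, which binds IGFs outside the cell and whose transcription insulin represses, was at 10.3, 12.6, 10.7 and 8.10 FPKM with rFGF4 and at 8.99, 2.05, 2.96 and 2.99 FPKM with vehicle. Vehicle mouse 2 was above rFGF4 mouse 5 and below the other treated mice, and vehicle mice 3, 4 and 5 were low, so the groups overlapped. Its log2 fold change was 1.27 (SE 0.35, 95% interval 0.48 to 2.07), with an unadjusted limma p of 0.0060, an adjusted limma p of 0.918 and an exact permutation p of 0.0571. It passed the threshold in all 17 alternative fits. Liver, a main source of this protein, was checked through 5 marker genes, whose summed FPKM was 120, 196, 219 and 128 with rFGF4 and 99.5, 129, 99.5 and 70.9 with vehicle. *Apoa1* and *Serpina1c* passed the threshold, both higher with rFGF4, and *Alb* was between 2.62 and 15.6 FPKM in all libraries. The part of liver-type transcripts in the *Igfbp1* values was not tested.

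*Ptprf* encodes the receptor phosphatase LAR, which can dephosphorylate the insulin receptor. It was at 27.7, 22.3, 23.8 and 17.1 FPKM with rFGF4 and at 15.2, 12.4, 14.3 and 13.7 FPKM with vehicle, with no overlap. Its log2 fold change was 0.65 (SE 0.15, 95% interval 0.30 to 1.01), with an unadjusted limma p of 0.0026, an adjusted limma p of 0.918 and an exact permutation p of 0.0286. It did not reach the required 1.5-fold change in 4 of the 17 alternative fits, with the direction kept. Among these, the log2 fold change was 0.53 under median-ratio scaling and 0.56 without rFGF4 mouse 1.

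With *Ptprf*, 4 of the 61 genes had groups that did not overlap, all higher with rFGF4, against 2.66% of all tested genes in that direction. The other 3 did not pass the threshold. *Foxo3*, a transcription factor that AKT holds out of the nucleus, was at 13.0, 15.5, 18.8 and 12.9 FPKM with rFGF4 and at 10.8, 10.4, 9.42 and 12.3 FPKM with vehicle, with a log2 fold change of 0.44 (unadjusted limma p = 0.0164, exact permutation p = 0.0286). *Tsc1*, a subunit of the complex that restrains mTORC1, had a log2 fold change of 0.28 (unadjusted limma p = 0.0688, exact permutation p = 0.0286). *Gab1*, a docking adaptor, had a log2 fold change of 0.30 (unadjusted limma p = 0.0947, exact permutation p = 0.0286), and 0.16 without vehicle mouse 3. Every gene whose groups do not overlap has an exact permutation p of 0.0286. For *Ptprf* and these 3 genes it therefore adds nothing to the lack of overlap. Under median-ratio scaling the groups overlapped for *Foxo3*, *Tsc1* and *Gab1*. *Igf2r*, named after its values were seen, had a limma p under 0.05 (0.0167) with a log2 fold change of 0.38 and overlapping groups.

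By role, the 20 kinases and targets downstream of PI3K had log2 fold changes between 0.048 and 0.46. All were positive, against 67.1% of all tested genes, and 0 of 20 passed the threshold. An unadjusted limma p under 0.05 was found for 1 of 20, against 4.62% of all tested genes. Under median-ratio scaling 15 of the 20 were positive, against 47.6% of all tested genes. Without rFGF4 mouse 1 it was 17 of 20, against 52.2% of all tested genes, and 1 of the 20 passed. Among 12 tested negative regulators 11 were positive and 1 passed, *Ptprf*, but without rFGF4 mouse 1 it was 7 positive and 0 passed. Of 10 adaptors 9 were positive and 0 passed, and of 6 other PI3K subunits 4 were positive and 0 passed. Of 11 IGF binding proteins and their regulators 7 were positive and 1 passed, *Igfbp1*. Without rFGF4 mouse 1 the positive counts of these roles were 7 of 10, 2 of 6 and 6 of 11, and *Igfbp1* alone passed. Of the 2 tested ligands and receptors, *Igf2r* was positive and *Insrr*, the insulin receptor-related receptor, had the most negative value of the list. *Insrr*, named after its values were seen, was at 1.46, 2.91, 3.43 and 5.06 FPKM with rFGF4 and at 4.35, 8.93, 5.66 and 2.96 FPKM with vehicle. Its log2 fold change was -0.61 and did not pass the threshold, and with a mouse left out it ran from -0.82 without vehicle mouse 5, the 1 of 17 alternative fits in which it passed, to -0.37 without rFGF4 mouse 1. *Foxo1*, a FoxO factor named after its values were seen, had a log2 fold change of 0.46 and did not pass, but it passed in 5 of the 17 alternative fits, among them that without rFGF4 mouse 1 (0.61), and without rFGF4 mouse 3 its log2 fold change was 0.26. In all, 52 of the 61 were positive, against 67.1% of all tested genes, and without rFGF4 mouse 1 it was 40 of 61 (all tested genes 52.2%), with a median of 0.076. The median over the 61 genes was 0.19, against 0.086 over all tested genes, and 0.075 against -0.011 under median-ratio scaling. The insulin genes *Ins1* and *Ins2* and the substrate *Irs4* were listed at 0 in all 8 libraries.

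**Figure D4:**
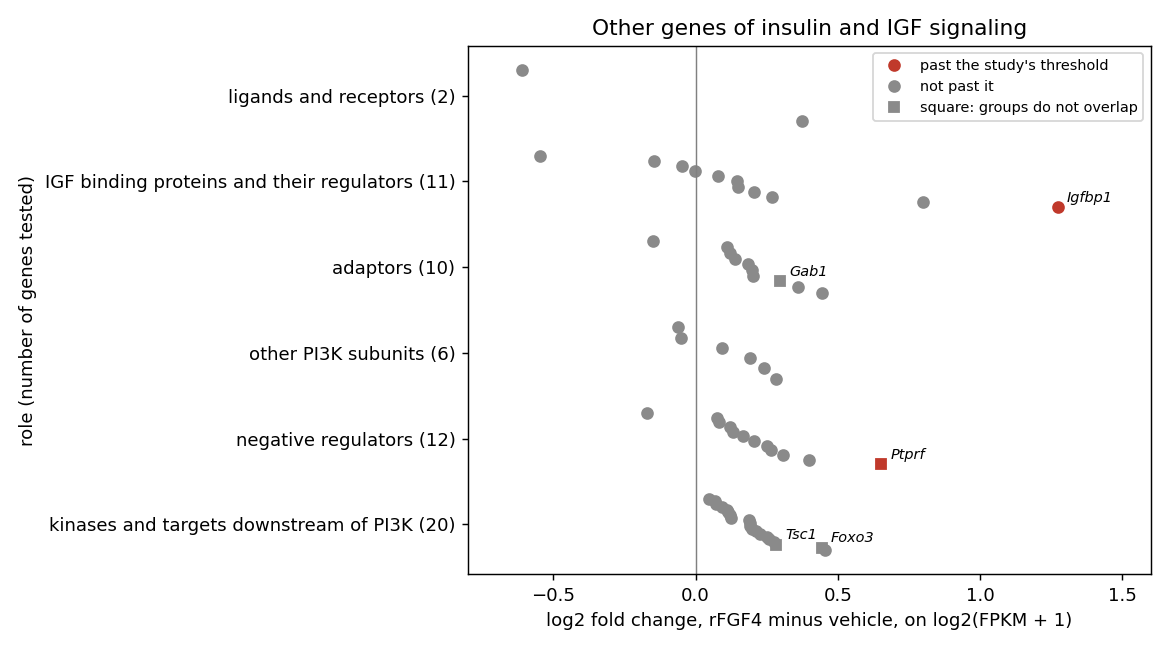
Log2 fold change on log2(FPKM + 1), rFGF4 minus vehicle, of the 61 tested genes of the pathway list, a point per gene, arranged by role; red marks genes past the study's threshold and squares mark groups that do not overlap. *Igfbp1* (1.27) and *Ptprf* (0.65) are the red points, and the 20 kinases and targets downstream of PI3K all lie right of 0, between 0.048 and 0.46.

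The deposited table also annotates 139 genes to the KEGG insulin signaling pathway, 6 of which are among the 10 genes. Of 119 tested, 93 were positive (78.2%, against 67.1% of all tested genes), with a median log2 fold change of 0.17. Under median-ratio scaling 72 (60.5%) were positive with a median of 0.070, against 47.6% of all tested genes, and without rFGF4 mouse 1 it was 76 (63.9%) with a median of 0.060, against 52.2% of all. The study's threshold was passed by 3 genes, all higher, *Insr*, *Ptprf* and *Fasn*, against 1.53% of all tested genes. The count was 1 under median-ratio scaling, 8 with array weights, 9 as TPM and 6 without both rFGF4 mouse 1 and vehicle mouse 5. With a mouse left out it was 2 to 5. It was 5 without rFGF4 mouse 1 or 5 and without vehicle mouse 2 or 5, and 2 without rFGF4 mouse 2. Of all 15150 tested genes, 232 passed in the main fit, 176 under median-ratio scaling, 496 with array weights and 686 as TPM. With a mouse left out 188 to 580 of all genes passed, and 273 without both rFGF4 mouse 1 and vehicle mouse 5. *Fasn*, fatty acid synthase, was named after its values were seen and was at 7.84, 7.98, 6.39 and 3.73 FPKM with rFGF4 and at 4.07, 2.86, 3.19 and 4.22 FPKM with vehicle. It was not called under median-ratio scaling, with a block for mouse number, or without rFGF4 mouse 1 or 2. Groups did not overlap for 7 of the 119 genes, all higher with rFGF4, against 2.66% of all tested genes in that direction.

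The genes whose levels ran most like those of 9 of the 10 genes over the 8 libraries were found by Pearson's r of log2(FPKM + 1) among all tested genes with a mean of at least 1 FPKM. These are descriptions over 8 libraries that share library makeup and group. For *Insr* they were *2610306O10Rik* (r = 0.98), *Tmem129* (0.97) and *Cdkn1b* (0.96). *Cdkn1b*, the cell-cycle inhibitor p27, was at 8.76, 6.78, 6.24 and 8.40 FPKM with rFGF4 and 5.62, 5.54, 6.06 and 7.01 FPKM with vehicle, so that rFGF4 mice 1 and 5 were highest here as for *Insr*.

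For *Igf1r* the closest were *Ubqln1*, *Vil1* and *Galk2* (each r = 0.97), of which *Vil1* encodes villin, a protein of the tubule brush border. For *Igf1* they were *Rp2*, *Igfbp2* and *Ptgis* (r from 0.98 to 0.99), with *Igfbp2*, another IGF binding protein, at 5.13 FPKM in rFGF4 mouse 1 and 5.54 FPKM in vehicle mouse 5 and at no more than 1.07 FPKM elsewhere. For *Pik3cd* they were *Samd14*, *Rcn1* and *Gtf2f1* and for *Grb10* *Slc35c1*, *Kdm5b* and *Tnfsf13*, each with r of at least 0.99. The closest to *Irs2* were *Arhgap17*, *Hesx1* and *Creld1*, to *Irs1* *Abhd6*, *Ndufab1* and *Phb*, to *Grb14* *Klk1b3*, *Mymx* and *Pip5k1b*, and to *Pik3r1* *Star*, *Gm8557* and *Cldn16*, with r between 0.95 and 0.98.

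In the GENCODE M21 annotation on GRCm38, used here for gene positions, *Insr* lies on chromosome 8 from 3122061 to 3279617 on the minus strand and *Igf1r* on chromosome 7 from 67952827 to 68233668 on the plus strand. *Igf1* lies on chromosome 10 from 87858265 to 87937042 on the plus strand, *Irs1* on chromosome 1 from 82233101 to 82291416 and *Irs2* on chromosome 8 from 10984681 to 11008458, both on the minus strand. Values were summed per gene by the authors, so exons and isoforms of these genes could not be separated.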

How the data were processed

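RNA of 8 kidneys (RIN above 7 in the labels) was made into poly(A) paired-end libraries. The labels give kidney as the tissue, although their extraction text speaks of adipose in passing, and labels and methods name different Illumina instruments. The authors assembled each library with StringTie, merged transcripts with gffcompare and deposited FPKM per gene. The submitters' processing notes name HISAT2 2.0, StringTie 1.3.0, Bowtie 0.12.2 and mm8 without their roles, although 99.5% of the gene identifiers were found in GENCODE M21 (GRCm38). The deposited table also holds the authors' own comparison, a fold change (ratio), its log2, a p-value and a q-value per gene, and none of these was used. It gives no counts, so depth and counting error are unknown. Depth relative to vehicle mouse 2, estimated from steps in low FPKM, was 0.905 to 1.12. A value of 0.0001 was read as 0.

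Groups came from the labels. Genes that reached an FPKM of 0.5 in 4 or more libraries (15150) were compared as log2(FPKM + 1) with limma 3.58.1 (trend, R 4.3.3) and Benjamini-Hochberg adjustment, since the study's own test needs counts. The procedure was tested on simulated data. Two-sided exact permutation tests were run for single genes. The p-values set the difference between groups against the spread between these libraries. Libraries that share a mouse number were not treated as pairs, although the check described below cannot exclude pairing.

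The 10 genes, the pathway list and the marker lists were chosen with earlier results of these data known. The text names the 10 genes, pathway genes past the threshold or with groups that did not overlap, and the 3 most alike genes per member, which for *Pik3ca* are not reported here; exceptions are stated. Alternatives were another pseudocount, no filter, no trend, a block for mouse numbers, array weights, other scalings, adjusted p-values, no fold limit, each mouse left out and, added after seeing the data, rFGF4 mouse 1 and vehicle mouse 5 left out together. Figures used matplotlib 3.10.9.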

Additional observations from a re-analysis of the deposited data

Results flagged for a closer look

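The screen covered each of the 10 genes, the pathway genes *Igfbp1*, *Ptprf*, *Foxo3*, *Tsc1* and *Gab1*, and several library measures and marker sums. It looked within each group of 4 for a library far from the rest. Such a library had a gap to its nearest neighbour above the 95% critical value of Dixon's test as a share of the group's range. Of 40 groups, 2 had such a library, as many as chance gives at 1 in 20. *Igf1* in vehicle mouse 5 was at 3.07 FPKM against 0.289 to 0.529 FPKM in the other vehicle mice, a gap of 0.851 of the range. The summed FPKM of vehicle mouse 5 was 481321 against 541179 to 552604 in the other vehicle mice, a gap of 0.840 of the range.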

How the results depend on the processing

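Of 170 comparisons of a member with an alternative fit, 162 kept direction and side of the threshold and 8 reversed direction, in genes that never passed. With a mouse left out, *Igf1* ran from -0.44 to 0.24 (0.24 without vehicle mouse 5, 0.034 without rFGF4 mouse 3) and *Pik3r1* from -0.11 to 0.16. *Pik3r1* was -0.074 after scaling to a common median ratio.

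With limma, 232 genes passed the study's threshold, against 496 with array weights, 686 as TPM, 391 as TPM without mitochondrial and immunoglobulin genes, and 188 to 580 with a mouse left out (580 without rFGF4 mouse 5, 434 without vehicle mouse 5). For the 10 genes the count was 1 in these fits, 2 with no fold limit and 0 by adjusted p, where 0 of all genes passed and 700 had an unadjusted p under 0.05. Members with groups that did not overlap numbered 2 as TPM (with *Pik3ca*). As TPM 4.25% of all genes were in this state, against 3.33% in the main fit with all mice. With a mouse left out such members numbered 1 to 3. *Igf1r* and *Irs2* joined without rFGF4 mouse 5 (11.0% of all genes), and *Igf1r* joined without vehicle mouse 4 (5.04%). Pathway genes past the threshold numbered 2, against 5 with array weights, 6 as TPM, 1 after scaling to a common median ratio, 2 to 4 with a mouse left out (4 without vehicle mouse 5) and 0 by adjusted p, where 4 had an unadjusted p under 0.05. Without both rFGF4 mouse 1 and vehicle mouse 5, 273 genes, 1 of the 10 genes and 2 pathway genes passed, the latter being *Igfbp1* and *Foxo1* in place of *Igfbp1* and *Ptprf*, as also without rFGF4 mouse 1 and with the block described next. The causes of these shifts were not tested.

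The groups share mouse numbers 2, 3 and 5, but deviations of same-numbered libraries correlated at -0.229, -0.155 and -0.393, so the numbers were not treated as pairs. With a block for mouse number, 263 genes passed (182 higher, 81 lower), *Insr* was 0.83 (limma unadjusted p = 0.0291), *Igf1* was -0.62, *Grb10* was 0.011, *Pik3r1* was -0.17 and *Pik3cd* was -0.060, and *Ptprf* fell below the fold limit at 0.57. None of the 3 rFGF4 libraries correlated best with its own number. Depth is unknown, so the counting error of genes near 1 FPKM, *Insr* among them, could not be given.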

Other observations

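Over the pathway list, 23 of 61 tested genes had their 2 highest values in rFGF4 mouse 1 and vehicle mouse 5, a share of 37.7% against 32.0% of all 15150 tested genes, and among the 10 genes it was 3 of 10. These genes, counted after the values were seen, included the adaptor *Dok1* (6.98 and 6.37 FPKM in these libraries, 1.18 to 3.15 in the others), the lipid phosphatase *Inpp5d* (5.53 in both, 0.750 to 2.75 in the others) and the cytokine signaling inhibitor *Socs3* (15.2 and 14.6, against 0.802 to 9.10). The opposite pattern, the 2 lowest values in this pair, was found for 2 of the 61 genes and 5.31% of all tested genes. These were the kinases *Gsk3b*, at 1.23 and 0.744 FPKM against 3.32 to 4.04 in the others, and *Mtor*, at 8.69 and 9.45 FPKM against 11.3 to 17.7.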
